A study of Rattus norvegicus with 6 samples.

Results

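The genes described here encode the proteases that cut the extracellular matrix and the cell surface, and the inhibitors that bind them. They were every symbol of the FPKM table that begins with Mmp, Timp, Adam or Adamts followed by a digit, which gave 58 of the 17030 gene symbols in the table. Of these, 21 were matrix metalloproteinases (Mmp), 4 were tissue inhibitors of metalloproteinases (Timp), 20 were membrane-bound disintegrin metalloproteases (Adam) and 13 were their secreted relatives (Adamts). FPKM counts fragments for each kilobase of a transcript, relative to all mapped fragments of its library, so that levels are per length. In all, 33 of the 58 averaged at least 1 FPKM and were tested, 25 lay below that mean, and 4 of these (Adam26a, Adam34, Mmp20 and Mmp28) were listed at 0 in all 6 tumors.

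Most MMPs are made as inactive precursors and are secreted, while the membrane-type MMPs stay on the cell and cut matrix at its surface. TIMPs bind the active site of MMPs, and TIMP3 also inhibits several ADAM and ADAMTS proteases. ADAM10 and ADAM17 release growth factors, receptors and cytokines from the cell surface, and ADAMTS proteases cut proteoglycans and process procollagen, so that in a tumor these families take part in remodelling of the stroma and in local signalling.

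The tumors were PAIII tumors, a transplantable rat prostate cancer kept by serial passage, grown under the skin of the flank of Lobund-Wistar rats that were 2 months old when injected. Rats A1, A6 and A12 were labelled as given digitoxin at 0.03 mg/kg into the peritoneum each day from day 10, and rats B5, B9 and B14 as given vehicle, with all tumors taken on day 40 (n = 3 rats in each group). Micropunches of viable tumor were pooled to 1 messenger RNA library per rat. The study chose the digitoxin rats among those with low serum IL-6 and CINC-1, the rat counterpart of IL-8, and the vehicle rats among those with high levels, so that the groups also differ by this choice. Directions are given for the libraries as they are labelled. Whether these column labels match the grouping behind the study's own comparison could not be settled from the sources used here, and another assignment could change directions between digitoxin and vehicle.

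The 6 tumors fell into a set of 2, A12 and B14 from different groups, and a set of the other 4. The tumors were described as subcutaneous, but transcripts of lung epithelium were abundant in A1, A6, B5 and B9, at 13.1%, 20.99%, 5.84% and 8.29% of all FPKM, and nearly absent from A12 and B14. The source of these transcripts was not tested. Of 13 lung epithelial markers in the table, 12 were lower in both, with a summed level of 44.5 FPKM in A12 and 66.0 FPKM in B14 against 48909 to 215151 FPKM in the others. Without Scgb1a1, a gene of airway club cells, the alveolar markers of the list summed to 42.2 and 64.5 FPKM in A12 and B14 against 28279 to 85923 FPKM, which was 6.43%, 8.38%, 3.38% and 5.13% of all FPKM in A1, A6, B5 and B9. Of 10 fibroblast markers, 8 were higher in A12 and B14 (summed level 3337 and 4622 FPKM against 304 to 996 FPKM), with Col1a2 listed at 0 in all 6. Of the genes listed as prostate markers, Pbsn and Hoxb13 were at or near 0 in all 6 tumors and Tmprss2 was at 7.69 to 34.1 FPKM, while the epithelial genes Krt8 (398 to 2095 FPKM) and Epcam (208 to 525 FPKM) were high. In such bulk samples, fewer cells of a type and less RNA per cell cannot be told apart.

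For none of the 33 tested genes did a difference between digitoxin and vehicle tumors pass the test. In limma on log2(FPKM + 1), none passed an adjusted p of 0.05 (0% of the 10749 transcripts tested in the whole table did), none had an unadjusted p under 0.05 (0.335% of all did), and none had groups that did not overlap (4.16% of all did, 0.902% with higher and 3.26% with lower levels under digitoxin). The smallest unadjusted p of the members was 0.134, for Adam9, and the smallest adjusted p was 0.926. The log2 fold change, digitoxin minus vehicle, was above 0 for 15 members and below 0 for 18 (35.1% and 64.9% of all transcripts tested). That change ran from -1.50 for Mmp3 to 0.94 for Mmp15, with a median of -0.067 and a median standard error of 0.68, beside a median of -0.16 over all transcripts tested. With median-of-ratios scaling, which moved the median of all transcripts by 0.18, the split was 20 above and 13 below 0, and the signs of Adam17, Mmp11, Mmp19, Timp1 and Timp3 turned positive. Many members, though not Timp2, Adam15, Adam17 or Adam19, varied several-fold between tumors of 1 group.

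**Figure D1:**
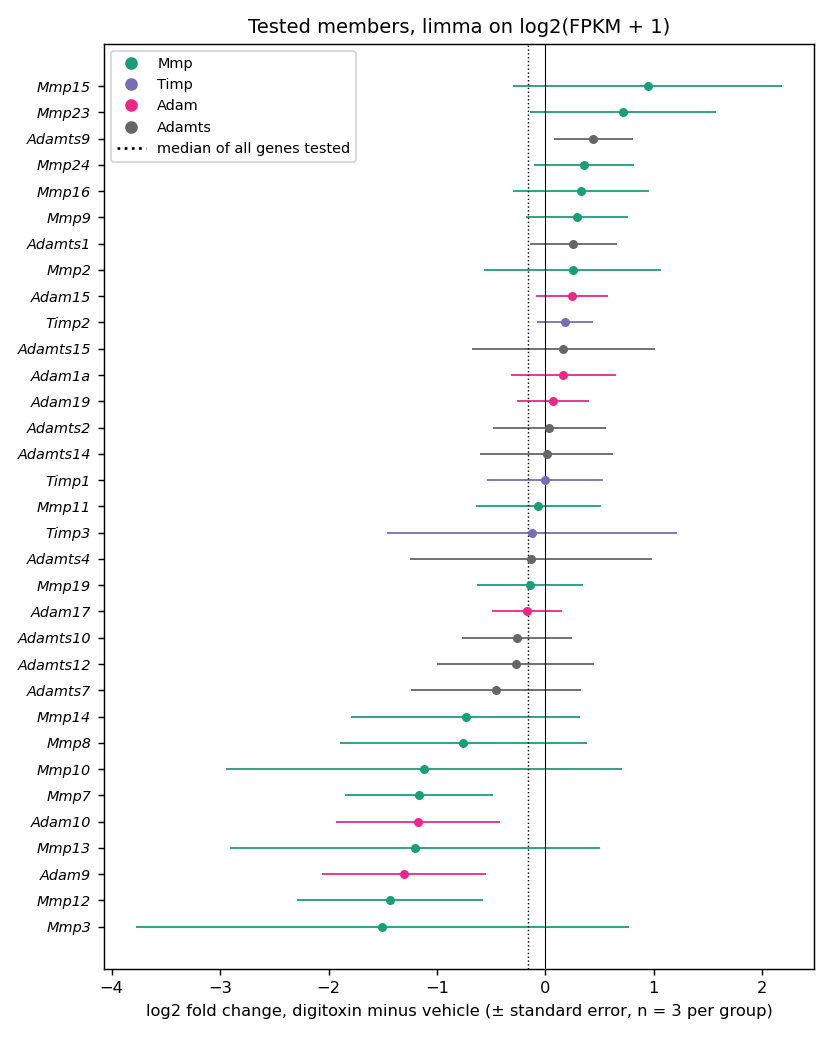
Log2 fold change (digitoxin minus vehicle, log2(FPKM + 1) scale) of the 33 tested genes, as points with bars of 1 standard error from limma (n = 3 tumors per group), coloured by family, with the median of all transcripts tested as a dotted line. The values run from -1.50 for Mmp3 to 0.94 for Mmp15, and none of the 33 has an unadjusted p under 0.05.

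The secreted MMPs with the widest spread lie side by side. Per the positions in the table, whose genome build is not given in the sources used here, 9 Mmp genes occupy 375.1 kb of chromosome 8, from 5527979 to 5903105, in the order Mmp13, Mmp12, Mmp3, Mmp1a, Mmp10, Mmp8, Mmp27, Mmp20 and Mmp7. No other symbol of the table lies between them. Of the 9 genes, 6 were tested, and Mmp1a, Mmp27 and Mmp20 stayed at or below 0.218 FPKM in every tumor. The 250 bases before the transcription start of the 6 tested genes are shown because these neighbours differed in their pattern over the tumors. They come from RefSeq on the rat build GRCr8, whose positions are not those of the FPKM table, all on the + strand of chromosome 8 (chr8:12782579-12782828 for Mmp13, chr8:12866402-12866651 for Mmp12, chr8:12925031-12925280 for Mmp3, chr8:12974457-12974706 for Mmp10, chr8:13008640-13008889 for Mmp8 and chr8:13132793-13133042 for Mmp7). Capitals mark the letters TGAGTCA or TGACTCA, which the transcription factor AP-1 binds, and TATAAA or TTTATA, the core of a TATA box.
Mmp13: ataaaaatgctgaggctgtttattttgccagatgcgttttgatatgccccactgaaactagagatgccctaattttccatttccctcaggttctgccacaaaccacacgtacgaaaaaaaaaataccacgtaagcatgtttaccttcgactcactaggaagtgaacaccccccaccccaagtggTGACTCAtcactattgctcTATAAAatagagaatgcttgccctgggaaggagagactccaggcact
Mmp12: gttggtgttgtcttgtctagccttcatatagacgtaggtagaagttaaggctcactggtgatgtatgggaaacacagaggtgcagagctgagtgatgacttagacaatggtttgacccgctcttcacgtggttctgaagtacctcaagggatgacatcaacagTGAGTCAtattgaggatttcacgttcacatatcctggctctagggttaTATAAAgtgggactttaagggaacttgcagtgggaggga
Mmp3: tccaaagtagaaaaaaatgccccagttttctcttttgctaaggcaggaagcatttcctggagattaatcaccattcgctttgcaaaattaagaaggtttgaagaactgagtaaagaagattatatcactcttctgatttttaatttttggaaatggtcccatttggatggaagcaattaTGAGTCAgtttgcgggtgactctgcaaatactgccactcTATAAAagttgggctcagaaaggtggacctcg
Mmp10: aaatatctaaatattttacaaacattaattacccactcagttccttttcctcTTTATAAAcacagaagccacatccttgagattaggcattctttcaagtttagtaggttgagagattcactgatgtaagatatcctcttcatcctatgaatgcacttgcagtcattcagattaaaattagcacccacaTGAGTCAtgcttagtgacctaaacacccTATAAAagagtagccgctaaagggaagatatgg
Mmp8: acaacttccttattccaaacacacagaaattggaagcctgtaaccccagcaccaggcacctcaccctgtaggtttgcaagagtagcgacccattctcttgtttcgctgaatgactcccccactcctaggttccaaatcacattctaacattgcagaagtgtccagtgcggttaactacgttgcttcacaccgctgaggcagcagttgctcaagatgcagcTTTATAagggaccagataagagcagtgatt
Mmp7: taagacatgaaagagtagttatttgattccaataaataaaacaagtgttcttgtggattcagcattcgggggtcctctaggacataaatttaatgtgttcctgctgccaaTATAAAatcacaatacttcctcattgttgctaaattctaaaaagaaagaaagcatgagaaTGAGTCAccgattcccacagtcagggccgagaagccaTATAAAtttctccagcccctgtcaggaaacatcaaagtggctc

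The AP-1 letters stood once in the sequence of 5 of these 6 genes, beginning at position -61 from the start of Mmp10, -66 in Mmp13, -71 in Mmp3, -80 in Mmp7 and -87 in Mmp12. The sequence of Mmp8 did not hold them. All 6 held the TATA letters close to the start, at positions from -30 in Mmp8, there as TTTATA, to -47 in Mmp13. Mmp7 held a further match at -140. In Mmp10 a further pair of matches, at -198 and -196 and on opposite strands, overlap each other. Among the 38 of 58 members with a RefSeq promoter entry, 6 held the AP-1 letters on either strand (15.8%), the sixth being Adam19, beside 4.05% of 33469 promoter windows of the same length. The TATA letters stood in 14 of the 38 (36.8%), beside 12.9% of all windows. A match of letters is a description of the sequence and was not tested for binding.

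Mmp3 (stromelysin-1, which cuts many matrix proteins and activates other MMPs) was at 14.3, 0.0852 and 371 FPKM in digitoxin tumors A1, A6 and A12, and at 23.6, 14.2 and 377 FPKM in vehicle tumors B5, B9 and B14. A12 and B14 were within a factor of 1.02 of each other, and the lower of them was 15.7 times the highest of the other tumors. Its log2 fold change between the groups was -1.50 (SE 2.27; limma adjusted p = 0.931), 0.54 without A6, -2.25 without A12 and B14, and -0.11 as a log2 ratio of group means. Mmp10 (stromelysin-2) was at 1.11 FPKM in A1, listed at 0 in A6 and at 57.5 FPKM in A12, against 4.32, 2.42 and 68.7 FPKM in B5, B9 and B14. Mmp13 (collagenase-3, which cuts fibrillar collagen) was at 1.10 FPKM in A1, listed at 0 in A6 and at 36.7 FPKM in A12, against 3.43, 2.27 and 65.5 FPKM. These 3 genes thus shared a pattern over the tumors, high in A12 and B14, low in A1, B5 and B9, and lowest in A6. The groups overlapped for each, since each group held 1 tumor with high levels.

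Within tumors, the 3 genes kept similar proportions in A12, B5, B9 and B14, while in A1 Mmp3 was higher relative to Mmp10. The ratio of Mmp13 to Mmp10 ran from 0.639 in A12 to 0.986 in A1, and that of Mmp3 to Mmp10 from 5.46 in B5 to 6.45 in A12, with 12.8 in A1. Neither ratio was computed for A6. Together Mmp3, Mmp10 and Mmp13 held 56.0% and 51.8% of the summed Mmp FPKM in A12 and B14, against 12.5% in B5, 9.32% in B9, 7.53% in A1 and 0.0467% in A6. Of the 10 fibroblast markers, 8 were also higher in A12 and B14, as were 8 of 9 cell division markers. Among these 8 fibroblast markers, Col1a1, Col3a1, Thy1 and Fap were lowest in A6, while Dcn, Lum, Pdgfrb and Postn were not. The summed level of the cell division markers was 674 and 612 FPKM in A12 and B14. It was 340 to 466 FPKM in A1, B5 and B9, and 64.6 FPKM in A6. The AP-1 subunit genes measured were not alike, since Fos, Fosl1, Fosl2 and Junb were higher in A12 and B14 than in each other tumor, while Jun (17.3 and 22.0 FPKM against 32.4 to 72.2 FPKM) and Jund (130 and 98.2 FPKM against 167 to 299.6 FPKM) were lower. Fosl1, chosen after its values were seen, was at 39.3, 0.990 and 197 FPKM in A1, A6 and A12 and at 84.2, 80.7 and 159 FPKM in B5, B9 and B14. Their part in these levels was not tested.

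**Figure D2:**
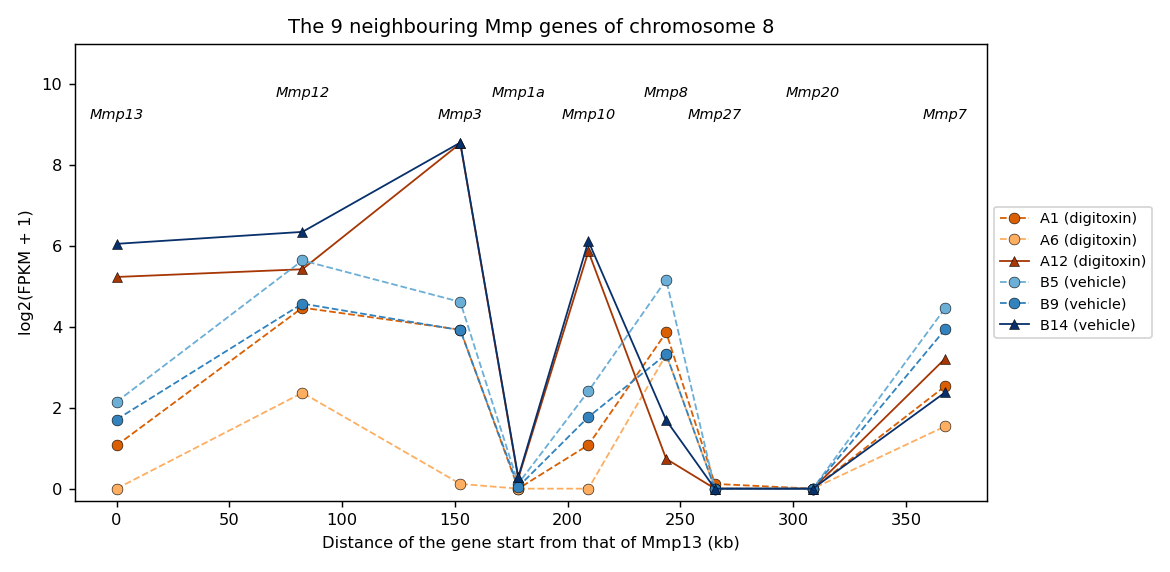
Level of each of the 9 neighbouring Mmp genes of chromosome 8 as log2(FPKM + 1) in each tumor (lines; orange digitoxin, blue vehicle, triangles A12 and B14) against the distance of the gene's start from that of Mmp13 in kb. Mmp13, Mmp3 and Mmp10 peak in A12 and B14, while Mmp8 is lowest there and Mmp1a, Mmp27 and Mmp20 stay near 0.

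The remaining tested genes of the cluster did not follow this pattern. Mmp8 (neutrophil collagenase, stored in neutrophil granules) was at 13.6, 8.95 and 0.667 FPKM in A1, A6 and A12, and at 34.9, 9.02 and 2.23 FPKM in B5, B9 and B14. It was lowest in A12 and B14, the opposite of Mmp10 beside it, and the lowest of the other tumors was 4.01 times the higher of these. Its log2 fold change was -0.76 (SE 1.14; limma adjusted p = 0.931), and it turned to 0.13 without B5 and 0.20 without A12. Of 10 neutrophil markers, 7 were lower in A12 and B14, and their summed level was 1358 and 3391 FPKM there against 11387 to 63099 FPKM in the other tumors. That sum was mostly S100a8 and S100a9, which were highest in A6 (34402 and 27959 FPKM), whereas Mmp8 was highest in B5. Other neutrophil markers differed in their highest tumor, such as Cxcr2 in B5 (36.9 FPKM), Csf3r in B9 (29.2 FPKM) and Lcn2 in A1 (624 FPKM). The part of these markers in the level of Mmp8 was not tested.

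Mmp12 (macrophage elastase) was at 21.3, 4.18 and 42.0 FPKM in A1, A6 and A12 and at 49.0, 22.9 and 80.7 FPKM in B5, B9 and B14. Its log2 fold change was -1.43 (SE 0.85; limma unadjusted p = 0.142, adjusted p = 0.926), and it stayed below 0 with any 1 tumor left out, from -2.10 without A12 to -0.57 without A6. The 10 macrophage markers summed to 619 to 975 FPKM in digitoxin tumors and 704 to 1536 FPKM in vehicle tumors. A log2 fold change below 0 was found for 8 of these 10, beside 64.9% of all transcripts tested. They did not share 1 order, since in A6, where Mmp12 was lowest, Cd68 was highest (270 FPKM) and C1qa lowest (72.3 FPKM). The part of these markers in the level of Mmp12 was not tested. Mmp7 (matrilysin, made by epithelial cells) was at 4.80, 1.91 and 8.31 FPKM in digitoxin tumors and at 21.1, 14.4 and 4.21 FPKM in vehicle tumors. Here A12 had the highest level of its group and B14 the lowest of its own, and B14 alone made the groups overlap. The log2 fold change was -1.17 (SE 0.68; limma unadjusted p = 0.138, adjusted p = 0.926), and -2.17 without A12 and B14.

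The gelatinases cut denatured collagen and the type IV collagen of basement membranes. Mmp2 was at 25.9, 31.6 and 87.3 FPKM in A1, A6 and A12 and at 16.1, 22.8 and 112 FPKM in B5, B9 and B14, with a log2 fold change of 0.25 (SE 0.82). Mmp9 was at 27.0, 30.1 and 60.01 FPKM in digitoxin tumors and at 32.0, 17.1 and 47.5 FPKM in vehicle tumors, with a log2 fold change of 0.29 (SE 0.47). Both were highest in A12 and B14, but by less than the stromelysins, with the lower of these tumors at 2.76 times the highest of the others for Mmp2 and 1.49 times for Mmp9. Mmp9 had one of the narrower spreads among the secreted MMPs, at 3.50-fold between the highest and the lowest tumor, beside 4419-fold for Mmp3.

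Among the other secreted MMPs, Mmp11 (stromelysin-3, which furin activates inside the cell) was at 10.6, 15.1 and 2.79 FPKM in digitoxin tumors and at 8.64, 9.78 and 6.82 FPKM in vehicle tumors. Mmp19 was at 10.04, 4.77 and 8.27 FPKM against 5.22, 6.62 and 15.8 FPKM. For both, the groups overlapped and the log2 fold change (-0.067, SE 0.58, and -0.14, SE 0.49) was smaller than its error. Mmp23, which is anchored in the membrane by its amino-terminal end, was at 5.88, 7.59 and 15.6 FPKM in A1, A6 and A12 and at 1.27, 3.66 and 20.0 FPKM in B5, B9 and B14. It was higher in each of A1 and A6 than in B5 and B9, while B14 was above every digitoxin tumor. Its log2 fold change was 0.72 (SE 0.86), and 0.0083 without B5.

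The membrane-type MMPs split into opposite patterns. Mmp14 (MT1-MMP, which cuts collagen at the cell surface and activates the precursor of MMP2) was at 39.6, 9.54 and 135 FPKM in A1, A6 and A12 and at 32.4, 43.4 and 180 FPKM in B5, B9 and B14. It was highest in A12 and B14 and lowest in A6, the order of the stromelysins, with a log2 fold change of -0.73 (SE 1.06) that became 0.20 without A6, 0.0091 without B14, and -0.90 without both A12 and B14. Mmp15 (MT2-MMP) was at 36.3, 56.4 and 2.96 FPKM in digitoxin tumors and at 13.3, 26.7 and 2.02 FPKM in vehicle tumors. It was highest in A6 and lowest in A12 and B14, the lowest of the other tumors being 4.49 times the higher of these. A1 and A6 were each above B5 and B9, and A12 was above B14, but the groups overlapped because of A12. Its log2 fold change over all 6 was 0.94 (SE 1.24; limma adjusted p = 0.926), and 0.035 without B14.

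The ratio of Mmp14 to Mmp15 was 45.5 in A12 and 89.2 in B14, and lay between 0.169 in A6 and 2.43 in B5 in the other tumors. Like Mmp15, 12 of 13 lung markers were lower in A12 and B14, but not all of them followed it among A1, A6, B5 and B9. Mmp15 was highest in A6, while Lamp3, for one, was highest in B9 (327 FPKM) and lowest of these in A6 (149 FPKM). The part of the lung markers in the level of Mmp15 was not tested. Mmp24 (MT5-MMP) was at 5.55, 8.80 and 2.83 FPKM against 4.80, 4.76 and 2.48 FPKM, and Mmp16 (MT3-MMP) at 1.72, 3.28 and 0.0361 FPKM against 0.730, 1.83 and 0.244 FPKM. Both again were lowest in A12 and B14 and highest in A6, at log2 fold changes of 0.36 (SE 0.46) and 0.33 (SE 0.63), and that of Mmp24 was 0.036 without A6 and 0.71 without A12.

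**Figure D3:**
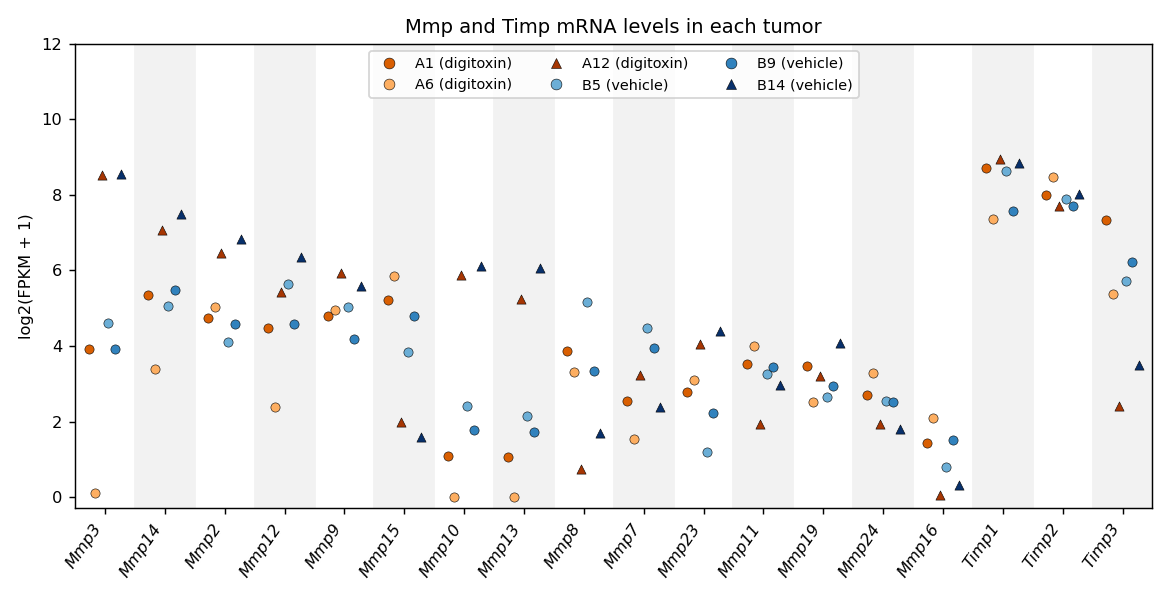
Levels of the 15 tested Mmp and 3 tested Timp genes as log2(FPKM + 1), 1 point per tumor (orange digitoxin, blue vehicle, triangles A12 and B14), ordered by mean FPKM within each family. For every gene the digitoxin and vehicle tumors overlap, and the triangles lie together at the top for Mmp3, Mmp10 and Mmp13 and at the bottom for Mmp15 and Mmp8.

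The leading MMP thus differed from tumor to tumor. It was Mmp3 in A12 and B14, Mmp14 in A1 (39.6 FPKM) and B9 (43.4 FPKM), Mmp15 in A6 (56.4 FPKM) and Mmp12 in B5 (49.0 FPKM). The summed FPKM of the 21 Mmp genes was 219, 183 and 831 in A1, A6 and A12 and 251, 202 and 985 in B5, B9 and B14. A12 and B14 were again alone at the top, and the group means, 411 ± 364 FPKM for digitoxin and 479.5 ± 439 FPKM for vehicle (SD, n = 3), differed by less than either SD. Each mean rested on 1 tumor, since it was 201 FPKM for digitoxin without A12 and 227 FPKM for vehicle without B14.

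The summed level of the inhibitors was above that of the MMPs in the 4 tumors other than A12 and B14. Timp1, a soluble inhibitor of most secreted MMPs, was at 418, 164 and 498 FPKM in A1, A6 and A12 and at 397, 188 and 461 FPKM in B5, B9 and B14, the highest mean of all members at 355 FPKM. The second tumor of each group, A6 and B9, had the lowest level, and the log2 fold change was -0.0039 (SE 0.54). Timp2, which inhibits MMP2 and also takes part with MMP14 in its activation, was at 256, 353 and 209 FPKM against 238, 209 and 260 FPKM, with a log2 fold change of 0.18 (SE 0.26). It had the narrowest spread of the members tested, 1.69-fold between the highest and the lowest tumor.

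Timp3, which is bound in the matrix, was at 160, 40.2 and 4.28 FPKM in A1, A6 and A12 and at 51.8, 74.4 and 10.4 FPKM in B5, B9 and B14. It was lowest in A12 and B14, the lowest of the other tumors being 3.87 times the higher of these, and highest in A1. Its log2 fold change was -0.13 (SE 1.34; limma adjusted p = 0.988) and depended on A1 and A12, at -1.27 without A1, 1.19 without A12 and 0.37 without both A12 and B14. Timp4, below the minimum for the test, was at 0.998 and 1.33 FPKM in A1 and A6 and listed at 0 in A12, and it was at 1.03 and 0.267 FPKM in B5 and B9 and listed at 0 in B14. Of 8 endothelial markers, 7 were lower in A12 and B14 (summed level 114 and 123 FPKM against 288 to 863 FPKM), as were 12 lung markers, and the part of either in the levels of Timp3 and Timp4 was not tested.

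The summed FPKM of the 4 Timp genes was 835, 558 and 712 in A1, A6 and A12 and 688, 472 and 732 in B5, B9 and B14. The inhibitor sum varied far less over the tumors than the protease sum, and A12 and B14 did not stand apart in it. The share of Timp3 in it was 0.601% and 1.42% in A12 and B14, against 7.20% in A6 to 19.1% in A1 among the others, while Timp1 held 70.0% and 63.0% there. The ratio of summed Timp to summed Mmp FPKM was 3.82, 3.06 and 0.857 in A1, A6 and A12 and 2.74, 2.33 and 0.743 in B5, B9 and B14. It was below 1 in A12 and B14 alone. The mean ratio was 2.58 ± 1.54 in digitoxin and 1.94 ± 1.06 in vehicle tumors (SD, n = 3), a difference smaller than either SD, and it was 3.44 and 2.54 without A12 and B14. Without Timp1 and Mmp3, the highest member of each sum, the mean ratios were 1.55 and 1.08. No test was made of these sums and ratios.

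**Figure D4:**
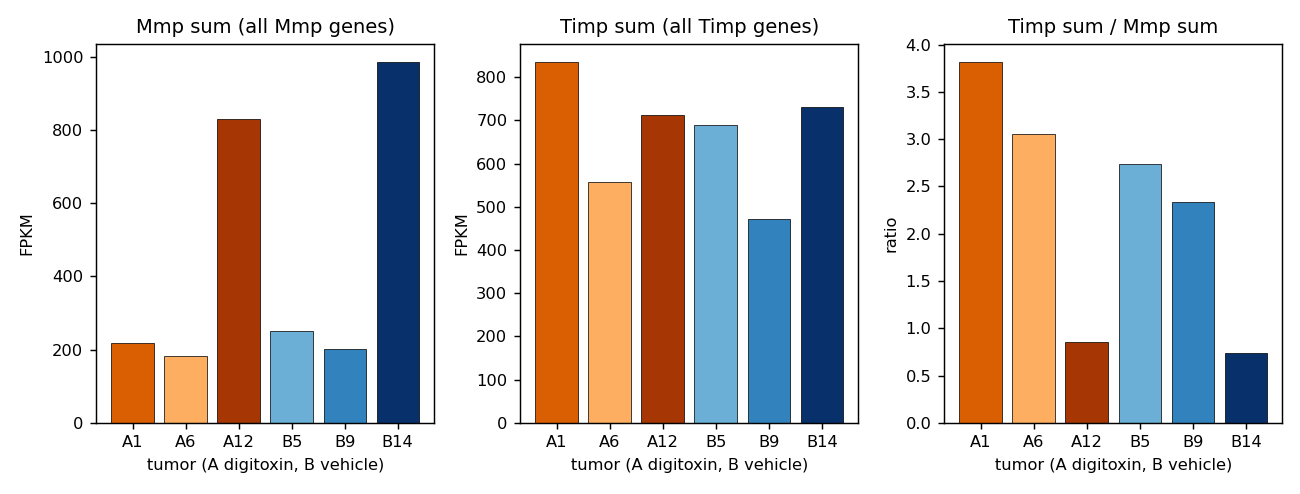
Summed FPKM of the 21 Mmp genes (left) and of the 4 Timp genes (middle) and the ratio of the Timp sum to the Mmp sum (right), as 1 bar per tumor from 0 (orange digitoxin, blue vehicle). The Mmp sum is 831 in A12 and 985 in B14 against 183 to 251 in the other tumors, and the ratio is below 1 in these tumors alone.

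Of the 6 tested Adam genes, Adam17 and Adam9 had the highest mean levels. Adam17 (which releases TNF and ligands of the EGF receptor) was at 45.0, 47.1 and 32.1 FPKM in A1, A6 and A12 and at 44.8, 65.9 and 33.0 FPKM in B5, B9 and B14. Its spread was 2.05-fold, and the log2 fold change was -0.17 (SE 0.32). Adam10 (which cuts Notch receptors and cadherins) was at 19.8, 3.56 and 33.6 FPKM in digitoxin tumors and at 24.2, 33.4 and 42.6 FPKM in vehicle tumors. Adam9 was at 27.2, 5.86 and 53.3 FPKM against 39.6, 51.2 and 73.2 FPKM. For both genes A6 had by far the lowest level, and A12 alone made the groups overlap. Their log2 fold changes were -1.18 (SE 0.75) for Adam10 and -1.30 (SE 0.76) for Adam9, with limma adjusted p = 0.926 for each. Without A6 they were -0.32 and -0.46, and without A12 and B14 they were -1.60 and -1.73.

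Adam9 and Adam10 kept a steady ratio over all 6 tumors, from 1.37 in A1 to 1.72 in B14. The ratio of Adam10 to Adam17 was 0.0754 in A6, between 0.440 and 0.539 in A1, B5 and B9, and 1.05 and 1.29 in A12 and B14. A6 also had the lowest summed level of the cell division markers, and their part in the low Adam9 and Adam10 of A6 was not tested. Adam15 (a surface protein with a disintegrin domain) was at 32.2, 43.8 and 19.4 FPKM against 23.8, 26.8 and 25.6 FPKM, and Adam19 at 29.8, 24.8 and 22.9 FPKM against 16.0, 25.9 and 35.0 FPKM. The highest tumor was 2.26 and 2.19 times the lowest, and their log2 fold changes were 0.24 (SE 0.33) and 0.066 (SE 0.33). The remaining tested Adam gene, Adam1a, ran from 0.635 FPKM in B14 to 3.12 FPKM in A1.

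Among the Adamts genes, Adamts4 (aggrecanase-1, which cuts the proteoglycan aggrecan) had the pattern of the stromelysins. It was at 0.820, 0.0461 and 9.69 FPKM in A1, A6 and A12 and at 0.503, 0.721 and 9.39 FPKM in B5, B9 and B14, so that the lower of A12 and B14 was 11.5 times the highest of the other tumors. The log2 fold change was -0.13 (SE 1.12). Adamts7 (1.61, 0.401 and 5.49 FPKM against 1.48, 1.53 and 8.78 FPKM) and Adamts12 (1.62, 0.372 and 2.999 FPKM against 0.625, 1.04 and 6.68 FPKM) were likewise highest in A12 and B14 and lowest in A6. Adamts15, which also cuts proteoglycans, had the opposite pattern, at 8.29, 8.19 and 1.16 FPKM against 4.45, 10.5 and 1.09 FPKM. The lowest of the other tumors was 3.83 times the higher of A12 and B14, and the log2 fold change was 0.17 (SE 0.84).

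Adamts10, which binds fibrillin, was at 15.3, 10.6 and 6.15 FPKM in digitoxin tumors and at 9.11, 23.4 and 8.48 FPKM in vehicle tumors. Adamts1, which cuts versican and aggrecan, was at 10.2, 6.93 and 6.998 FPKM against 3.66, 8.65 and 8.26 FPKM. Adamts2, which removes the amino-terminal propeptide of fibrillar procollagens, was at 6.94, 2.67 and 6.34 FPKM against 2.31, 5.51 and 8.21 FPKM. In none of these did A12 and B14 stand apart by as much as in Adamts4, and the log2 fold changes were -0.26 (SE 0.51), 0.26 (SE 0.40) and 0.037 (SE 0.52). The log2 fold changes over A1, A6, B5 and B9 alone were -0.19, 0.49 and 0.22. The other tested genes of the family, Adamts9 and Adamts14, had means of 3.06 and 1.25 FPKM. Summed over the family, Adamts FPKM was 49.9, 33.9 and 44.7 in digitoxin and 24.1, 55.2 and 58.7 in vehicle tumors, with A6 lowest in the former and B5 in the latter.

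**Figure D5:**
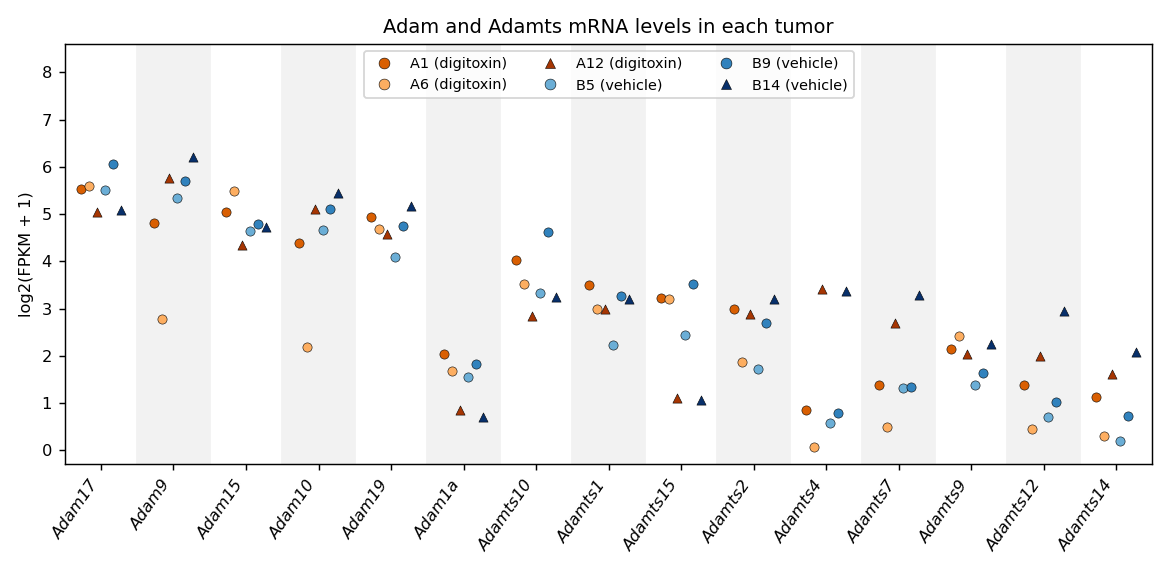
Levels of the 6 tested Adam and 9 tested Adamts genes as log2(FPKM + 1), 1 point per tumor (orange digitoxin, blue vehicle, triangles A12 and B14), ordered by mean FPKM within each family. A6 lies far below the other tumors for Adam9 (5.86 FPKM) and Adam10 (3.56 FPKM), and the triangles lie above the other points for Adamts4 (9.69 and 9.39 FPKM).

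Counted over the 33 tested members, 14 were higher in both A12 and B14 than in each of the other tumors (42.4%, beside 30.1% of all transcripts tested) and 10 were lower (30.3%, beside 29.3%). At least 4-fold higher were Mmp3, Mmp10, Mmp13 and Adamts4 (12.1%, beside 0.4% of all), and at least 4-fold lower were Mmp15 and Mmp8 (6.06%, beside 6.28% of all). Of the 15 tested MMPs, 7 were higher and 5 lower, and of the 9 tested Adamts genes 4 were higher and 2 lower. These tumors belong to different groups, and the counts describe the libraries rather than the treatment.

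The comparison of digitoxin with vehicle was therefore also made without A12 and B14, which leaves A1 and A6 against B5 and B9. No member passed an adjusted p of 0.05 in limma (smallest adjusted p = 0.392; 0.0186% of all transcripts passed). An unadjusted p under 0.05 was reached by 6 of 33, beside 11% of all transcripts tested, and groups did not overlap for 14 of 33 (8 higher and 6 lower in digitoxin tumors), beside 57.2% of all. The lower ones with p under 0.05 were Mmp7 (log2 fold change -2.17, limma unadjusted p = 0.0042), Mmp10 (-1.55), Mmp13 (-1.39) and Adam9 (-1.73), and the higher ones were Mmp15 (1.22) and Mmp23 (1.24). In all 4 of these lower genes the lowest value was that of A6, and the fit then rests on 2 tumors in each group.

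With the replicate number as a block, which sets A1 against B5, A6 against B9 and A12 against B14, again no member passed an adjusted p of 0.05 in limma (smallest adjusted p = 0.638). An unadjusted p under 0.05 was then reached by 5 members, beside 4.15% of all transcripts tested. Mmp12 (log2 fold change -1.43, SE 0.33, limma unadjusted p = 0.0038), Mmp13 (-1.20, unadjusted p = 0.014), Mmp10 (-1.12, unadjusted p = 0.032) and Adam9 (-1.30, unadjusted p = 0.040) had lower values with digitoxin, and Mmp15 (0.94, unadjusted p = 0.026) had higher values. In each of these 5 genes all 3 pairs had the same direction. Pairing by number removes the difference between A12 and B14 and the other tumors, and nothing in the labels says what a number marks.

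The other genes of the protease system were taken from 6 lists of activators, clearance receptors, further inhibitors, cathepsins, cell-surface metalloproteases, ADAM partners and transcription factors. By p they gave no call, like the members. Of 50 tested, none passed an adjusted p of 0.05 in limma and none had an unadjusted p under 0.05. The log2 fold change was above 0 for 22 and below 0 for 28 (35.1% and 64.9% of all transcripts tested), with a median of -0.028. A single gene had groups that did not overlap. Pcsk6, a proprotein convertase that cuts precursor proteins at paired basic residues, was at 37.0, 7.46 and 38.6 FPKM in A1, A6 and A12 and at 57.4, 53.3 and 41.6 FPKM in B5, B9 and B14, lower in every digitoxin tumor (log2 fold change -1.14, SE 0.62; limma adjusted p = 0.926). The margin between A12 and B14 was small, and A6 was again the lowest. Among transcripts of the whole table, 3.26% were lower in this way.

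The 25 members below a mean of 1 FPKM were left out of the comparison, and with no minimum the unadjusted p of 1 of them, Mmp17, was under 0.05. They were 6 Mmp, 1 Timp, 14 Adam and 4 Adamts genes, and they included the interstitial collagenase gene Mmp1a (0.218 FPKM at most), Mmp20, which acts in enamel, and Mmp28, listed at 0 on both of its entries. Most of the 14 Adam genes were at or near 0, among them Adam2 and Adam7, which are known from the male reproductive tract. Of all 58 members, 37 were above 0 in every tumor. Since the depth is unknown, no detection limit can be given for the rest.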

How the data were processed

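Messenger RNA of 6 rat PAIII tumors was measured, with 3 tumors in each group and 1 rat per tumor. The authors sequenced TruSeq libraries as single reads (Genome Analyzer IIx) and deposited 1 table of FPKM with a column per tumor. The submitters' processing notes name CASAVA, FastQC, Bowtie2, TopHat2, Cufflinks and Cuffdiff, and list the human build hg19, while the positions in the table lie on rat chromosomes; the rat build is not given in the sources used here. Cuffdiff needs the reads and was not repeated. FPKM sums ran from 651322 in B14 to 1025231 in A6. Steps between low FPKM values fixed no ratio of depths (at most 6.00% of low values lay at the most frequent ratio), so the depth is unknown, no interval or detection limit can be given, and 0 is written as listed at 0.

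FPKM were used as deposited. A symbol on several entries was read from the entry with the highest mean. Digitoxin and vehicle tumors were compared by limma 3.58.1 under R 4.3.3 (lmFit, eBayes with a trend, two-sided) on log2(FPKM + 1) for the 10749 transcripts with a mean of at least 1 FPKM, with adjustment by Benjamini and Hochberg over all of them. That scale understates the change of low transcripts. The fit was also run on simulated data with independent noise for each transcript. Those data lacked the shared difference of A12 and B14 from the other tumors, so that run does not measure the power reached here. Python 3.11.15, pandas 2.3.3 and matplotlib 3.10.9 were used for the rest. Promoter windows of 250 bases were read from RefSeq on GRCr8.

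Named genes were Mmp and Timp members with a mean of at least 1 FPKM, Adam and Adamts members with a mean of at least 5 FPKM, Mmp8 and Timp3, members with an unadjusted p under 0.05 or groups that did not overlap, and members at least 4-fold higher or lower in both A12 and B14 than in each other tumor, with members listed at 0 in all 6 tumors. Genes named outside this rule (Adam1a, Adam2, Adam7, Adamts7, Adamts9, Adamts12, Adamts14, Mmp1a, Mmp17, Mmp27, Fos, Fosl1, Fosl2, Jun, Junb and Jund) were chosen with their values known. Genes of the marker lists that are given singly were also chosen with their values known, and Pcsk6 was named because its groups did not overlap. Members, lists, tests and alternatives were chosen with earlier results of these data known.

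Same-numbered tumors were checked for pairing. Across genes, which are not independent, the deviations of same-numbered tumors from their group's mean had r = 0.426 for A1 with B5, 0.606 for A6 with B9 and 0.869 for A12 with B14. A1 with B9 (0.644) and A6 with B5 (0.612) moved together as closely, and the labels give no shared day or batch. The alternatives were a pseudocount of 0.1, no minimum, eBayes without a trend, median-of-ratios scaling, the replicate number as block, each tumor left out, A12 and B14 left out, entries of 1 symbol summed, ratios of group means, and sums without their highest member.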

Additional observations from a re-analysis of the deposited data

How the results depend on the processing

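The count of members past an adjusted p of 0.05 was 0 under every alternative run. The number with an unadjusted limma p under 0.05 was 0, and became 1 with no minimum (Mmp17; 1.05% of all transcripts), 5 with the replicate block, 6 without A12 and B14, and 0 to 3 with 1 tumor left out, where it was 3 without A12 (19.7% of all) and 2 without B14 (0.484%). The number with groups that did not overlap was 0, and became 1 with no minimum (3.33% of all), 14 without A12 and B14, and 0 to 9 with 1 tumor left out, where it was 9 without A12 (51% of all), 4 without B14 (10.4%) and 1 without B9 (8.13%). The median log2 fold change of -0.067 was 0.21 without A12 and B14 and ran from -0.22 to 0.17 with 1 tumor left out, highest without B14. The replicate block changed no other call. Without Timp1, the summed Timp FPKM was 341 in digitoxin and 282 in vehicle tumors in place of 702 and 630.4. Median-of-ratios scaling moved the median of all transcripts by 0.18 (from -0.16 to 0.021) and that of the members to 0.076, with 20 members above 0 and 13 below in place of 15 and 18. It turned the direction of 5 named genes, to 0.028 for Adam17, 0.12 for Mmp11, 0.028 for Mmp19, 0.20 for Timp1 and 0.076 for Timp3. Without A12 and B14 it turned to 0.42 for Mmp11, 0.21 for Mmp19 and 0.37 for Timp3, and as a log2 ratio of group means to -0.0068 for Adamts2, 0.17 for Mmp11, -0.061 for Mmp2, 0.046 for Timp1 and 0.58 for Timp3. With 1 tumor left out, the direction turned at least once for 21 of 28 named genes, most often without A6 (10 genes), and the log2 fold change ran from -0.019 to 0.55 for Adam15, -0.40 to 0.084 for Adam17, -0.22 to 0.32 for Adam19, -0.082 to 0.44 for Adamts1, -0.55 to 0.18 for Adamts10, -0.48 to 0.86 for Adamts15, -0.37 to 0.39 for Adamts2, -1.12 to 0.76 for Adamts4, -2.90 to 0.23 for Mmp10, -0.49 to 0.55 for Mmp11, -2.77 to 0.17 for Mmp13, -1.64 to 0.20 for Mmp14, -0.12 to 0.90 for Mmp16, -0.43 to 0.29 for Mmp19, -0.28 to 1.08 for Mmp2, -3.68 to 0.54 for Mmp3, -1.61 to 0.20 for Mmp8, -0.091 to 0.62 for Mmp9, -0.40 to 0.49 for Timp1, -0.020 to 0.36 for Timp2 and -1.27 to 1.19 for Timp3. It kept its direction for Adam10 (-1.79 to -0.32), Adam9 (-1.96 to -0.46), Mmp12 (-2.10 to -0.57), Mmp15 (0.035 to 2.12), Mmp23 (0.0083 to 1.61), Mmp24 (0.036 to 0.71) and Mmp7 (-1.77 to -0.72). A pseudocount of 0.1 turned no direction and moved Mmp3 to -2.34, Mmp10 to -2.26, Mmp13 to -2.32 and Adamts4 to -0.61, while as log2 ratios of group means these were -0.11, -0.36, -0.91 and -0.0080. The causes were not tested. The unknown depth limits every low FPKM, and 3 tumors in each group, of which 1 stood apart in each, limit every comparison.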

Other observations

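The AP-1, ETS and RUNX factors that are known to act on stromelysin and collagenase genes were also measured, as a list of 12 of which 11 were in the table and tested. With digitoxin, the log2 fold change was above 0 for 3 and below 0 for 8, beside 35.1% and 64.9% of all transcripts tested. The median was -0.35, beside -0.16 over all. None of the 11 passed an adjusted p of 0.05 or had an unadjusted p under 0.05 in limma. In both A12 and B14, 6 were higher and 4 lower than in each of the other tumors, beside 30.1% and 29.3% of all. The summed level of the 11 was 1007 and 887 FPKM in A12 and B14 against 599 to 706 FPKM elsewhere.

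The lysosomal cathepsins and cystatins, which break down matrix inside the cell and inhibit that, summed to 7621, 9238 and 4002 FPKM in A1, A6 and A12 and to 7367, 5874 and 4855 FPKM in B5, B9 and B14. Of 12 tested, 7 were lower and 2 higher in both A12 and B14, beside 29.3% and 30.1% of all transcripts tested. The summed level of this list, unlike that of the MMPs, was lowest in these tumors. With digitoxin, 9 were above and 3 below 0 (median log2 fold change 0.16), beside 35.1% and 64.9% of all transcripts tested. None of the 12 passed an adjusted p of 0.05 or had an unadjusted p under 0.05 in limma.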
